A study of Mus musculus with 2 samples.

Results

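Connexins and pannexins were examined in primary keratinocytes of newborn mice, the main cell type of the epidermis, on 2 arrays. The 7 genes were Gjb2, Gjb6 and Gjb5 of the beta connexins, Gja1 and Gja4 of the alpha connexins, the gamma connexin Gjc1 and the pannexin Panx1. They were chosen by name, with their values on these same arrays already known, so that their differences between the arrays are given as a description and support nothing further. A probe set, a group of short probes summarised as 1 signal, was counted for a gene where its only annotated symbol was that gene. This gave 13 probe sets of 34945 with a single symbol, and 7 genes of 18193.

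Each group was 1 primary culture from C57BL/6 mice, hybridised to 1 Affymetrix mouse 3′ expression array. The control mice are titled MED1flox/flox, with both Med1 alleles floxed and no Cre named, while their source and genotype labels call them wild-type. The other mice carried the same floxed alleles together with K5Cre (K5Cre+;MED1flox/flox, written MED1epi-/- in the title), and are labelled keratinocyte-specific MED1 null. In K5Cre the keratin 5 promoter drives Cre, so that other cells of a culture would keep the gene. MED1 belongs to Mediator, a large complex that transmits signals from transcription factors to RNA polymerase II. How many mice gave each culture is not stated in the labels, and since each group has 1 array, the spread between cultures is unknown and nothing was tested.

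Connexins are membrane proteins that assemble into hexameric channels. When the channels of neighbouring cells dock they form gap junctions, through which ions and small metabolites pass from cell to cell. In the epidermis the alpha connexin Gja1 (connexin 43) is found widely, whereas Gjb2 (connexin 26) and Gjb6 (connexin 30) are known for being scarce in resting skin between hair follicles and abundant in wounded and hyperproliferative epidermis. Inherited variants of GJB2 and GJB6 in people cause deafness and thickened skin. Pannexins resemble connexins in fold but not in sequence, and Panx1 forms single-membrane channels that release ATP.

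The 3 beta connexins were the members that read higher by more than the spread between probe sets on the MED1-null-labelled array, so the stretch of 250 bases before their RefSeq gene starts is shown, with that of Gja1, whose signal was nearly equal on both arrays, for contrast. Sequences are from RefSeq on build GRCm38.p6, written 5′ to 3′ in the direction of the gene. Of the 7 members, 6 had such an entry, 1 window each, and Gjc1 did not. Gjb2 lies on the minus strand at chr14:57104703-57104952, Gjb6 on the minus strand at chr14:57133612-57133861, Gjb5 on the minus strand at chr4:127358165-127358414 and Gja1 on the plus strand at chr10:56377050-56377299. Capitals mark matches, on either strand, to 5 short motifs chosen with the sequences in view: the GC box GGGCGG, the nuclear receptor half-site AGGTCA, the AP-1 site TGANTCA, the AP-2 site GCCNNNGGC and the TATA-like box TTAAAA.
Gjb2: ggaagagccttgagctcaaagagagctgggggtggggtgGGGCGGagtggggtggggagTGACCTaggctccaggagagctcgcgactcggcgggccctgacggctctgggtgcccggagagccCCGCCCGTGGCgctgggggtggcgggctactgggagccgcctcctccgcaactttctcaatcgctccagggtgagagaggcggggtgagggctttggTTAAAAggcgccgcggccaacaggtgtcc
Gjb6: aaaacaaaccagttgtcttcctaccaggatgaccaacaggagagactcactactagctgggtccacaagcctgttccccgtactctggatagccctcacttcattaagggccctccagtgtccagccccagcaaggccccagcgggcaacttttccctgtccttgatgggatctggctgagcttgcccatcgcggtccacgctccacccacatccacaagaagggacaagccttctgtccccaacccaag
Gjb5: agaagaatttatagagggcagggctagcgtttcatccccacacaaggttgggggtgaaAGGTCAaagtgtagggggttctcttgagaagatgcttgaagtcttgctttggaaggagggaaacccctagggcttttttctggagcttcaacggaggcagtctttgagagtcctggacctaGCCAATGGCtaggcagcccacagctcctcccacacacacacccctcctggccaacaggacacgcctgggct
Gja1: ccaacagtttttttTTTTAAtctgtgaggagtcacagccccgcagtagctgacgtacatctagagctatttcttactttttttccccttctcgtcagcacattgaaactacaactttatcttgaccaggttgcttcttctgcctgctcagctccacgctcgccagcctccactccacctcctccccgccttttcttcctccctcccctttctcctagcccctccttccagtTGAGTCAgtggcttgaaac

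The window of Gjb2 was the richest of these 4 in G and C (69.2%) and held 18 CpG dinucleotides, where the median over all RefSeq windows of this length was 52.4% and 6. It held 2 GC boxes, at positions -211 and -126 from the gene start, a half-site at -191, an AP-2 match at -124 that overlaps the second GC box, and a TATA-like match at -29. The Gjb5 window (54.4% G and C, 3 CpG) shared the half-site, at -192, and an AP-2 match, at -71. The Gjb6 window (56.8%, 5 CpG) held no match to any of the 5 motifs. In Gja1 (50%, 6 CpG) an AP-1 match stood at -19 and a TATA-like match at -236. Among windows not shown, that of Panx1 (59.6%) held 17 CpG and no match. That of Gja4 (61.2%, 9 CpG) held a GC box at -79 and a TATA-like match at -224. Matches of these kinds are common: of 32851 windows, 32.7% held the GC box, 14% the half-site, 6.75% the AP-1 site, 13.7% the AP-2 site and 17.7% the TATA-like box. The beta connexins thus had no searched motif in common, and a match describes letters only, not binding.

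All signals below are those the authors deposited, in arbitrary units on a linear scale. Log2 ratios were taken after every signal under a floor of 67.7 had been set to the floor, the pooled median of both arrays without their control probe sets, and a gene at or above the floor on either array is called measured. Of 11621 measured genes, 190 (1.63%) reached 2-fold in the higher direction on the MED1-null-labelled array and 259 (2.23%) in the lower one, together 3.86%. With a lowess curve subtracted these counts were 143 and 314. A log2 ratio above 0 was found for 57.1% of measured genes, and the median was 0.06. Probe sets of the same gene differed from each other in log2 ratio with a pooled SD of 0.31 (1.24-fold, 4916 genes), which says nothing of the spread between cultures. The targeted gene, Med1, read higher on the MED1-null-labelled array (462.7 against 1039). Of its 7 probe sets 6 reached the floor, and all 6 were higher there, with log2 ratios from 0.55 to 1.57. This goes against the label unless the probe sets lie outside the deleted part, whose position was not used here. Directions are therefore those of the labels. Xist, the RNA of the inactive X chromosome, read 5461 on the control array but 55.7 on the other. Of the Y chromosome, Eif2s3y read 4.2 on the control array against 2164, and Kdm5d 1.5 against 380.9. Sex-linked transcripts thus differed along with the genotype label, and genotype, sex, culture and array cannot be told apart in any value below.

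The beta connexins read higher on the MED1-null-labelled array, and the alpha, gamma and pannexin members differed little. Of the 7 members, all of them measured on both arrays, 2 passed 2-fold in the higher direction, none in the lower one, and 5 lay between. Beside the 1.63% of all measured genes in the higher direction this count is read no further, since the members were chosen with it known. The members' median log2 ratio was 0.17, and 5 of 7 were above 0, beside 57.1% of all measured genes. The 5 include Gja1 (0.05), whose sign turned with the processing. In RNA from whole cultures, fewer cells of a type and less RNA per cell cannot be told apart.

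**Figure D1:**
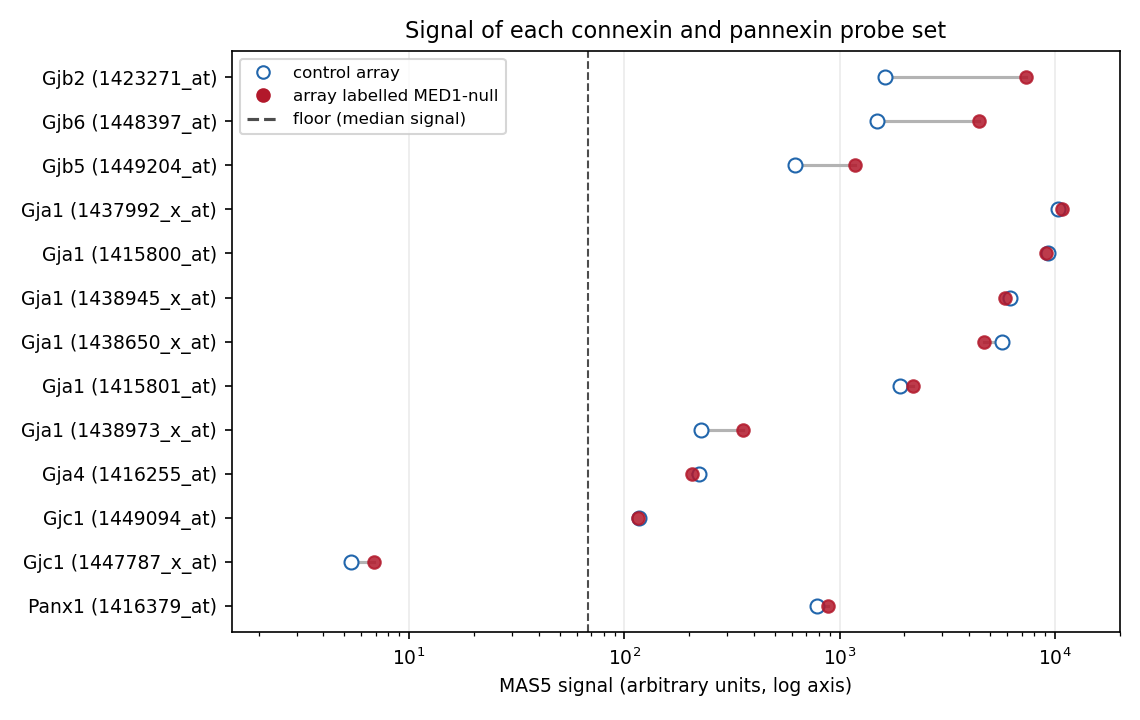
MAS5 signal (arbitrary units, log axis) of each of the 13 member probe sets on the control array (open circles) and the MED1-null-labelled array (filled circles), with the floor of 67.7 as a dashed line. The Gjb2, Gjb6 and Gjb5 pairs lie apart with the filled circle to the right, 5 of the 6 Gja1 pairs lie close together, and 1 of the 2 Gjc1 probe sets is far below the floor.

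Gjb2, which encodes connexin 26, read 1617 on the control array against 7311 on the MED1-null-labelled array, a 4.52-fold difference (log2 ratio 2.18). Only 3 measured genes had a higher ratio, Eif2s3y and Kdm5d of the Y chromosome and the growth factor Igf2. Gjb2 has 1 probe set, so its ratio could not be compared with a second reading of the same transcript. Against the spread between probe sets of other genes, the ratio was 7.13 times the pooled SD. Among the 10121 named genes that reached the floor on both arrays, Igf2 (4.78-fold, 147.1 against 703.8) stood directly above Gjb2, and Cdk20 (4.34-fold, 75.1 against 326.0) and the antimicrobial peptide gene Defb1 (4.17-fold, 790.7 against 3300) directly below. With 2 arrays such likeness rests on a single ratio per gene.

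Gjb6, which encodes connexin 30, read 1488 on the control array against 4445 on the MED1-null-labelled array, 2.99-fold higher (log2 ratio 1.58, rank 29 of 11621 measured genes). It too has 1 probe set. Gjb5, which encodes connexin 31.1, read 621.5 and 1175, 1.89-fold higher (log2 ratio 0.92, rank 257). Its ratio was below 2-fold but 3.01 times the spread between probe sets, and that of Gjb6 was 5.17 times. All 3 beta connexins with a probe set at the floor therefore lay in the same direction, in the order Gjb2, Gjb6, Gjb5 (2.18, 1.58 and 0.92). The members were chosen with these ratios known, so these multiples of the spread, and that of Gjb2, are descriptions and not tests.

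Gja1, which encodes connexin 43, was read by 6 probe sets, and these went both ways. The brightest read 10386 on the control array against 10731 on the MED1-null-labelled array (log2 ratio 0.05). The next read 9237 and 9057 (-0.03), followed by 6175 and 5846 (-0.08), 5700 and 4690 (-0.28), and 1914 and 2194 (0.20). The dimmest read 225.8 and 356.6 (0.66). The 5 brighter probe sets thus lay between -0.28 and 0.20, inside the pooled spread of 0.31, and the dimmest alone lay outside it. In all, 3 probe sets were above 0 and 3 below. Of the 6, 4 carry the suffix that marks sequence shared with other transcripts, and the direction of Gja1 turned with them: its log2 ratio was -0.03 by the brightest probe set without that suffix, and -0.02 after rescaling to a median ratio of 1. No direction is given for it.

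Gja4 (connexin 37), best known from endothelium, read 222.4 on the control array against 205.8 on the MED1-null-labelled array (log2 ratio -0.11). Gjc1 (connexin 45), known from heart and vascular smooth muscle, read 117.4 and 116.3 (-0.01) by 1 probe set and 5.4 and 6.9, far below the floor, by the other. Both genes read low, within 4 times the floor. Panx1, the ATP-releasing channel, read 783.6 and 880.4 (1.12-fold higher, 0.17). All 3 ratios were smaller than the pooled SD of 0.31. With 1 array each this does not show that the genes were equal in the cultures.

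**Figure D2:**
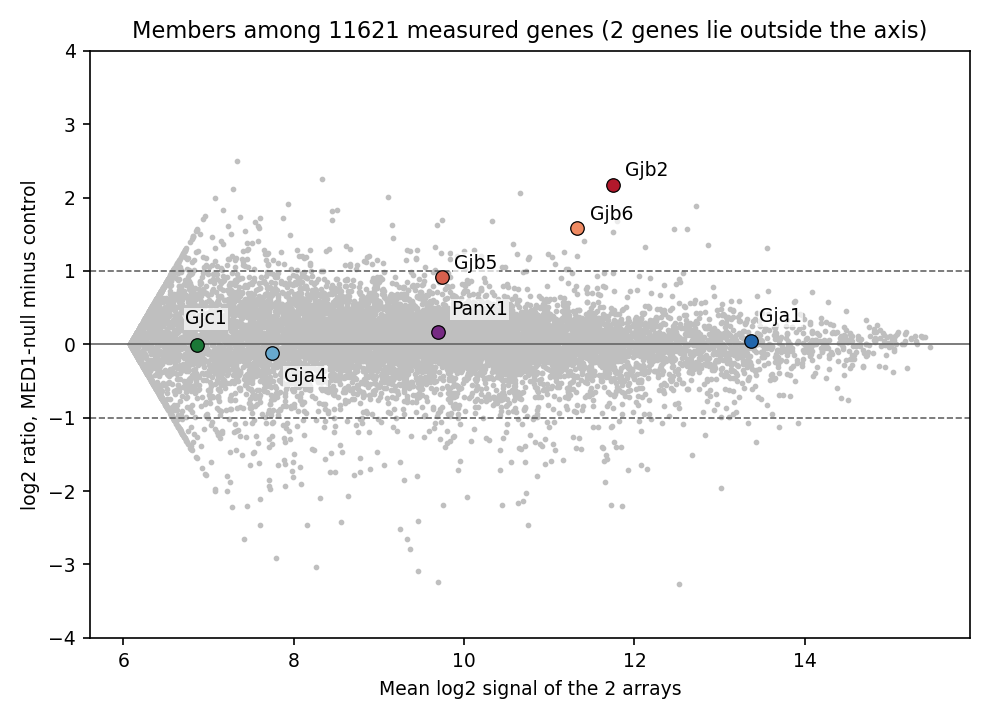
Log2 ratio (MED1-null-labelled array minus control) against mean log2 signal of the 2 arrays, for 11621 measured genes (grey) and the 7 members (coloured and named), with dashed lines at 2-fold. Gjb2 (2.18) and Gjb6 (1.58) lie above the upper line, Gjb5 (0.92) just under it, and the other 4 between -0.11 and 0.17.

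The other family genes read here lay below the floor. Besides the members, 10 connexin and pannexin genes were read, by 16 probe sets in all: Gja3, Gja5, Gja10, Gjb1, Gjc3, Gjd2, Gjd4, Gje1, Panx2 and Panx3. Their signals ran from 1.1 to 43.0 on the control array and from 1.1 to 39.0 on the MED1-null-labelled array, all under 67.7, so none is given a ratio.

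The members were also compared with their neighbours on the chromosome, since connexin genes lie in clusters. In the RefSeq annotation Gja3, Gjb2 and Gjb6 are consecutive protein-coding genes on chromosome 14. Of the 4 protein-coding genes on each side, 5 were measured, with log2 ratios from 0.02 for the zinc finger gene Zmym2 to 0.51 for the crystallin-like enzyme gene Cryl1. Zmym5 (0.18), the cilium gene Ift88 (0.24) and the methyltransferase gene Eef1akmt1 (0.40) lay between. All 5 were above 0, as were 57.1% of all measured genes, yet well under the 2.18 and 1.58 of Gjb2 and Gjb6. Gja4 (-0.11) and Gjb5 (0.92), which share a cluster on chromosome 4, did not go together. Of 8 flanking genes there 3 were measured, Tmem35b at 0.52 and the other 2 lower, with Dlgap3 (106.3 against 58.4) and Zscan20 under the floor on the MED1-null-labelled array.

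Genes whose products act on connexins were taken from lists around the pathway, to see whether they went with the beta connexins. Of 17 scaffold, trafficking and turnover partners, 14 were measured and none was 2-fold apart, with 7 above 0 and 7 below. Their median was -0.002, beside 0.06 over all measured genes, and its sign turned under 2 of 3 rescalings of the arrays (0.05 by quantiles and 0.004 by a lowess curve). Dbn1, an actin-binding protein that holds Gja1 at the membrane, read 142.8 and 73.5 (1.94-fold lower), and Cav1, the caveolar coat protein, 7348 and 11042 (1.5-fold higher). The connexin scaffold Tjp1, named after its value was seen, read 7100 and 5843 (1.22-fold lower). Of 12 kinases that phosphorylate connexins, 10 were measured and 5 were above 0. Prkca, a protein kinase C, was the only one 2-fold apart, at 526.6 against 243.4 (2.16-fold lower), but its probe sets ran from -1.11 to -0.20. The kinase median of 0.02 became -0.04 with the median ratio set to 1. It was also below 0 with the floor at the 75th percentile (-0.10), by the median over probe sets (-0.04) and without shared-sequence probe sets (-0.02).

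Purinergic genes, which act on the ATP that pannexin channels release, were mostly dim. Of 22 listed, 17 had a probe set and 7 were measured. The receptor P2ry1 read 59.5 (under the floor) on the control array against 187.4 on the other, at least 2.77-fold higher, and no measured member was 2-fold lower. P2rx7, an ATP-gated channel that acts together with Panx1, read 93.8 and 126.5, and Nt5e, the ectoenzyme that makes adenosine from AMP, read 5140 and 2657 (1.93-fold lower). These 2 genes were picked out with their values known. The median over the 7 was 0.21, and it lay below 0 with the floor at 18.1 or 434.6, the 25th and 75th percentiles of the signal.

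Transcription factors with connexin genes among their described targets were read as well. Of 13, 11 were measured, none of them 2-fold apart. Above 0 were 8 and below it 3, where 57.1% of all measured genes were above 0, and the median was 0.23. Trp63, the master regulator p63 of stratified epithelia, read 7798 and 11736 (1.5-fold higher) by its brightest probe set. Its 4 probe sets ran from 0.59 to 1.11 in log2 ratio, past 2-fold at the upper end. Tbx3 read 69.4, near the floor, and 103.8 (also 1.5-fold). Klf4, described as a repressor of Gjb2 in mouse epidermis and named after its value was seen, read 10569 and 10988 (1.04-fold). Genes of the other cell junctions went both ways: of 19 measured, 10 were above 0 and 9 below, with a median of 0.01 that became -0.06 with the median ratio set to 1. The desmosomal cadherin Dsg1a read 101.2 and 227.1 (2.24-fold higher), and the desmosomal plaque gene Pkp2 481.2 and 221.2 (2.18-fold lower; its probe sets ran from -1.12 to -0.86 in log2 ratio).

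**Figure D3:**
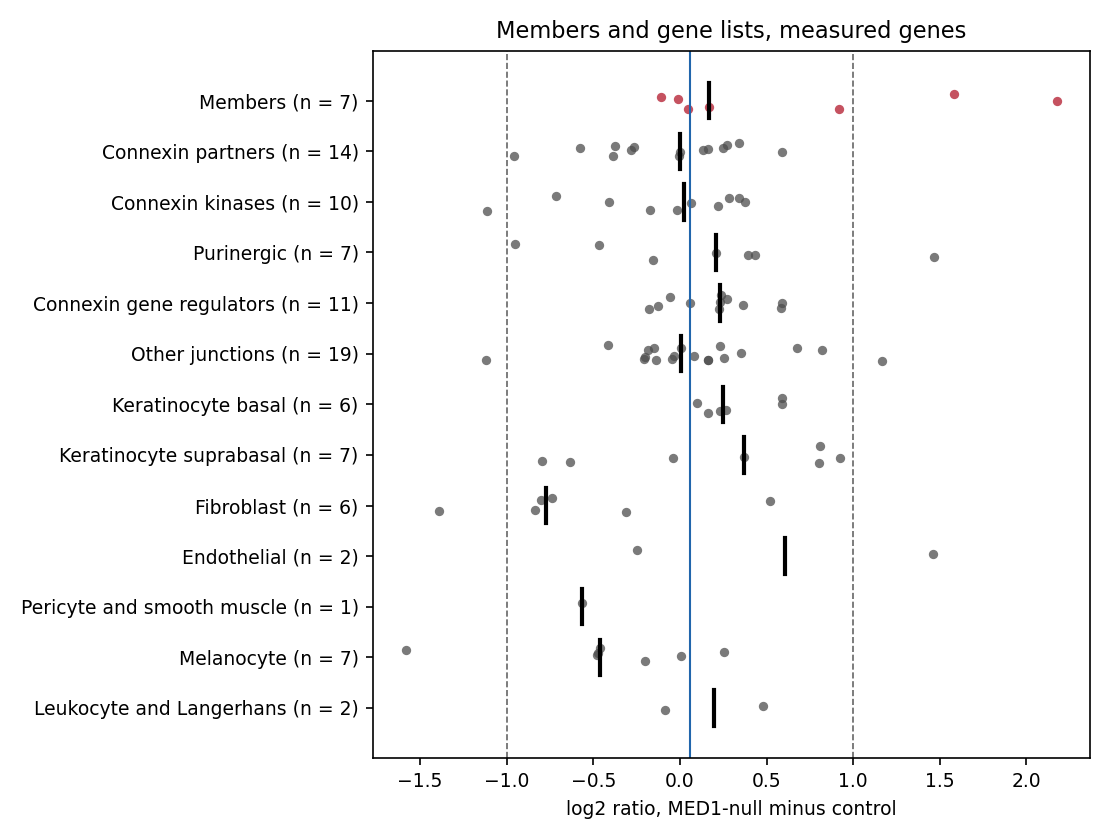
Log2 ratio (MED1-null-labelled array minus control) of each measured gene of the members and of 12 gene lists, 1 point a gene, with a black bar at each list's median, a blue line at the median of all measured genes (0.06) and dashed lines at 2-fold. At the floor of 67.7 Gjb2 and Gjb6 lie to the right of every listed gene, but P2ry1 and Flt1 are plotted as lower bounds: P2ry1 was at 1.66 with the floor at 18.1, above Gjb6, and the deposited signals of Flt1 lie further apart than those of Gjb2. As plotted, the fibroblast list has the lowest median (-0.77), with Col3a1, Dcn and Twist2 plotted as bounds.

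Connexins differ between cell types and epidermal layers, so marker genes were read beside them. Of 7 basal keratinocyte markers, 6 read high, the lowest of them Itgb4 at 4470 and 4778, and Krt15 was below the floor (12.5 and 3.8). All 6 measured were above 0, beside 57.1% of all measured genes, and none reached 2-fold (median 0.25, beside 0.06 over all measured genes; summed signal 109800 and 133970). Trp63 read as above, its brightest probe set giving the lowest of its ratios, and the hemidesmosome collagen Col17a1 was 1.5-fold higher. Of 7 measured suprabasal markers 4 were above 0 and 3 below (median 0.37, summed signal 45540 and 44794). The cornified envelope precursor Ivl read 373.8 and 708.5 (1.90-fold higher) and Krtdap 3916 and 6870 (1.75-fold higher), whereas the crosslinking enzyme Tgm1 read 7698 and 4430 (1.74-fold lower). Krt1, the keratin of the spinous layer, was below the floor on both arrays, and its partner Krt10 (194.6 and 251.3) read low, as did Lor (130.4 and 227.3) and Tgm3 (141.1 and 90.8). The part of a shift between layers in the beta connexin values was not tested.

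Markers of other cells were mostly lower or near the floor. Fibroblast markers were lower for 5 of 6 measured genes, where 57.1% of all measured genes were above 0. Their summed signal was 3370 and 1449, most of it from the matrix protein gene Sparc (2709 and 1034, 2.62-fold lower). Col3a1 (120.8 and 35.5), Dcn (118.1 and 35.2) and Twist2 (112.9 and 36) were under the floor on the MED1-null-labelled array, so their ratios are bounds. The list median was -0.77, and -1.31, -1.39 and -1.49 with the floor at 18.1, at 434.6 and with none. Col1a1 was below the floor on both arrays. All 7 melanocyte markers were measured, 5 of them lower, where 57.1% of all measured genes were above 0 (median -0.46, summed signal 24530 and 19019). The receptor Kit was 2.99-fold lower. Of the 2 above 0, Tyr had 3 probe sets from -1.26 to 0.25 in log2 ratio, 1 above 0 and 2 below. Those of Sox10 ran from 0.01 to 0.54, the brightest at 0.01. Of 8 endothelial markers, 6 were below the floor on both arrays, Pecam1, Cdh5 and Tek among them (summed signal 299.8 and 439.0). The 2 measured went opposite ways. Flt1 read 36.9 and 186.2, at least 2.75-fold higher, but its 4 probe sets ran from 0.12 to 1.46 in log2 ratio, and Kdr read 80.5 and 51.6. Their median of 0.60 became 0.19 by the median over probe sets. Of 6 pericyte and smooth muscle markers only Acta2 was measured (1.48-fold lower; summed signal 3876 and 2628), and Rgs5 and Myh11 were below the floor. Of 6 leukocyte and Langerhans markers, Csf1r (1.40-fold higher by its brightest probe set) and Cd74 (71.9 against 58.9) were measured, and Ptprc and Cd207 were below the floor (summed signal 292.8 and 329.7). The 3 probe sets of Csf1r ran from -0.68 to 0.48 in log2 ratio, 1 above 0 and 2 below. The part of these cells in the values of Gja1, Gja4 and Gjc1 was not tested.

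The order Gjb2, Gjb6, Gjb5 was found under each of the 8 other ways of processing the signals. Only the rescalings by quantiles and by a lowess curve could have changed it. The rescaling to a median ratio of 1 shifts these ratios alike. Floors and the choice of probe sets could not change the order, since each gene has 1 probe set, without a shared-sequence suffix and above every floor. Log2 ratios ran from 2.11 to 2.21 for Gjb2, from 1.52 to 1.61 for Gjb6 and from 0.86 to 0.92 for Gjb5. Those of Gja1 ran from -0.03 to 0.10, of Gja4 from -0.24 to -0.11, of Gjc1 from -0.14 to -0.01 and of Panx1 from 0.11 to 0.17. With the floor at 434.6, Gja4 and Gjc1 were no longer measured. Ranks depended on the floor, since dim genes with large ratios enter when it is lowered. That of Gjb2 was 2 of 6972 genes at 434.6, 64 of 16039 at 18.1 and 850 of 18184 with none. At the same floors Gjb6 ranked 9, 316 and 1334, and Gjb5 63, 1309 and 2420.

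**Figure D4:**
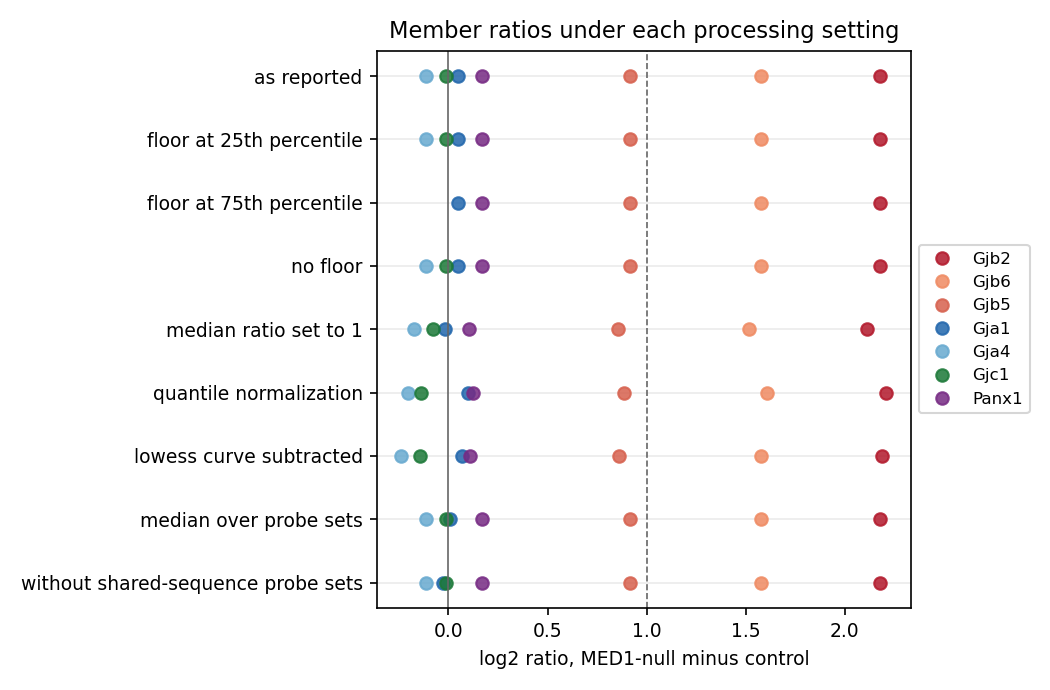
Log2 ratio (MED1-null-labelled array minus control) of the 7 members as reported and under 8 other settings, 1 row a setting, with lines at 0 and at 2-fold (dashed). Gjb2 and Gjb6 lie right of 2-fold in every row, Gjb5 between 0.86 and 0.92, and the other 4 between -0.24 and 0.17.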

How the data were processed

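The 2 arrays, 1 per group, were grouped by the genotype in the labels. Each probe set has 1 signal intensity, deposited by the authors after MAS5 processing (per the submitters' processing notes) in GeneChip Operating Software (per the series' design text). The software version is not given in the sources used here. In the values, each array's mean after trimming 2% at each end was 500. Since MAS5 subtracts the signal of mismatch probes, low values are noisy, hence the floor of 67.7. Of 45101 probe sets, 64 Affymetrix controls were left out, and symbols came from GEO's platform annotation. A gene took its probe set with the highest mean signal. The number of arrays limits the precision, and no test was possible.

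Members and lists were chosen with earlier results of these data known. Named were all members, the family, Med1, genes beside Gjb2 in the order of ratio, and per list up to 4 genes beyond 2-fold or 2 within it. Genomic neighbours were taken by position, and Xist, Eif2s3y, Kdm5d, markers named as below the floor and Tgm1 after values were seen. Some family genes are not reported here. Alternatives were lower (18.1) and higher (434.6) floors, no floor, 3 rescalings, the median over probe sets, and leaving out shared-sequence probe sets. The calculation was tested on simulated data and run with Python 3.11.15, pandas 2.3.3 and statsmodels 0.14.6.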

Additional observations from a re-analysis of the deposited data

How the results depend on the processing

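A log2 ratio or list median counted as moved when it changed by more than the pooled SD between probe sets, and a count when it changed over 1.5 times. No ratio of a member moved, and the counts of members beyond 2-fold were equal under all 8 alternatives. For the beta connexins only the 3 rescalings could have changed a ratio. The members' median was 0.92 at a 75th percentile floor, where Gja4 and Gjc1 dropped out. Over all genes, 1120 were higher and 934 lower with the floor at the 25th percentile, 49 and 106 at the 75th, and 2229 and 1900 with none. Of the further connexins and pannexins, 5 counted as measured at the 25th percentile and 10 with no floor. Among connexin partners, 1 was 2-fold higher with no floor and 1 lower under each of the 3 rescalings. Among kinases, 0 were lower at the 75th percentile and by the median over probe sets. The purinergic median was -0.15 at the 25th percentile and -0.71 at the 75th, with 3 genes higher at the 25th percentile and with no floor, 0 higher at the 75th, and 1 lower with no floor, with the median ratio set to 1 and by the median over probe sets. Of other junction genes, 0 were higher at the 75th percentile, and 0 lower there, by the median over probe sets and without shared-sequence probe sets. Of the medians of marker lists, that of fibroblasts was -1.31 at the 25th percentile, -1.39 at the 75th and -1.49 with no floor, that of suprabasal markers 0.80 without shared-sequence probe sets, that of endothelial markers 0.19 by the median over probe sets, and that of leukocyte markers (0.20 at the floor of 67.7) -0.13 at the 25th percentile, -0.30 by the median over probe sets and -0.52 without shared-sequence probe sets. Apart from members measured at 1 floor and not at another, the cause was not tested. No paired analysis was possible because each group has 1 array, and for the same reason no replicate could be left out. Signal near the floor limits Gjc1, Gja4, Tbx3, P2rx7 and P2ry1, and depth does not apply to arrays.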
